A study of Mus musculus with 14 samples.

Results

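Mice that lack the interleukin-4 (IL-4) receptor alpha chain in Pdgfra-expressing cells were compared with their floxed controls after 6 days of MC903, by bulk sequencing of polyadenylated RNA from neck skin. The comparison used 6 of the 14 libraries of the series, chosen by genotype and treatment label alone. The deleted group (cKO, 3 libraries) carried Pdgfra-Cre and Il4ra fl/fl on C57BL/6J. The control group (fl/fl, 3 libraries) was C57BL/6J Il4ra fl/fl without the Cre. Both groups were labelled female, were 6 to 7 weeks old and received 1 nmol MC903 in 100 µL on shaved neck skin on each of 6 days, with no injections. MC903 (calcipotriol) is a vitamin D analogue that causes a dermatitis used as a model of atopic skin disease. Each library came from 1 mouse, from about 20 frozen sections of 20 µm each. The 3 isotype libraries are set beside the comparison as a second control. They came from wild-type C57BL/6J females of 6 weeks that had the same MC903 course and injections of an isotype antibody. The MAR1 and untreated libraries enter the fit and the correlations below. The MAR1 mice were 6 weeks old and had the same MC903 course with injections of the MAR1 antibody. The untreated mice were 6 weeks old and had no MC903. Pdgfra-Cre acts wherever Pdgfra is or was expressed, and skin also holds keratinocytes, leukocytes and vessels that keep the floxed allele intact.

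The type I IL-4 receptor pairs the alpha chain (Il4ra) with the common gamma chain (Il2rg), and the type II receptor, which also binds IL-13, pairs it with Il13ra1. Janus kinases on these chains phosphorylate STAT6, which enters the nucleus and induces target genes. Skin fibroblasts carry mainly the type II receptor, and IL-4 or IL-13 is known to make them release chemokines such as eotaxin (Ccl11). Il13ra2 binds IL-13 as a decoy. Cish, Socs1 and Socs3 are cytokine-induced inhibitors of this signalling.

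The libraries differed in what RNA they held, and some of these differences followed the groups. The totals were 16501941 to 30830666 counts in cKO and 45126343 to 48004732 in fl/fl. The share of olfactory and vomeronasal receptor genes, whose known site is the nose, was followed as a trait of each library. What brought their counts into skin libraries was not tested. These genes took 1.49%, 0.466% and 2.58% of counts in cKO libraries 1, 2 and 3. Their shares were 0.0767%, 0.0479% and 0.0495% in fl/fl and 0.438%, 0.269% and 0.400% with isotype, so the cKO and fl/fl libraries did not overlap. The MAR1 libraries had the highest shares, 3.87%, 7.54% and 9.36%. For a list of 27 skeletal muscle genes the shares were 0.516%, 0.0115% and 0.0725% in cKO and 6.50%, 2.27% and 1.40% in fl/fl. B and plasma cell genes took 0.215%, 0.0522% and 0.000516% in fl/fl libraries 1, 2 and 3, and salivary gland genes 0.0880%, 1.47% and 0.00514%. The cKO libraries lay between 0.00207% and 0.00641% for B cell genes and between 0.00344% and 0.00452% for salivary genes. Library fl/fl 1 was thus rich in muscle and lymphoid RNA, fl/fl 2 in salivary RNA, and fl/fl 3 held muscle RNA with almost no lymphoid or salivary RNA. Skin itself was present in all 6 libraries. Basal keratinocyte genes took 1.05% to 2.13% of counts in cKO and 0.326% to 2.43% in fl/fl, and dermal fibroblast genes 0.390% to 0.826% and 0.336% to 1.11%. Although all mice were labelled female, the Y-linked genes Ddx3y and Eif2s3y reached 69.9 and 53.5 CPM in cKO library 1, with 0 counts of both in the other cKO libraries. Of the other Y-linked genes, Uty read 245, 38.0 and 198 CPM in cKO and 2.66 to 5.10 CPM in fl/fl. Kdm5d read 18.6, 3.92 and 23.9 CPM in cKO and 1.79 to 3.88 CPM in fl/fl. Uty and Kdm5d were called higher in cKO (edgeR adjusted p = 0.0080 and 0.023) and had an r of 0.97 and 0.98 with the receptor share in the 8 libraries outside the comparison.

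**Figure D1:**
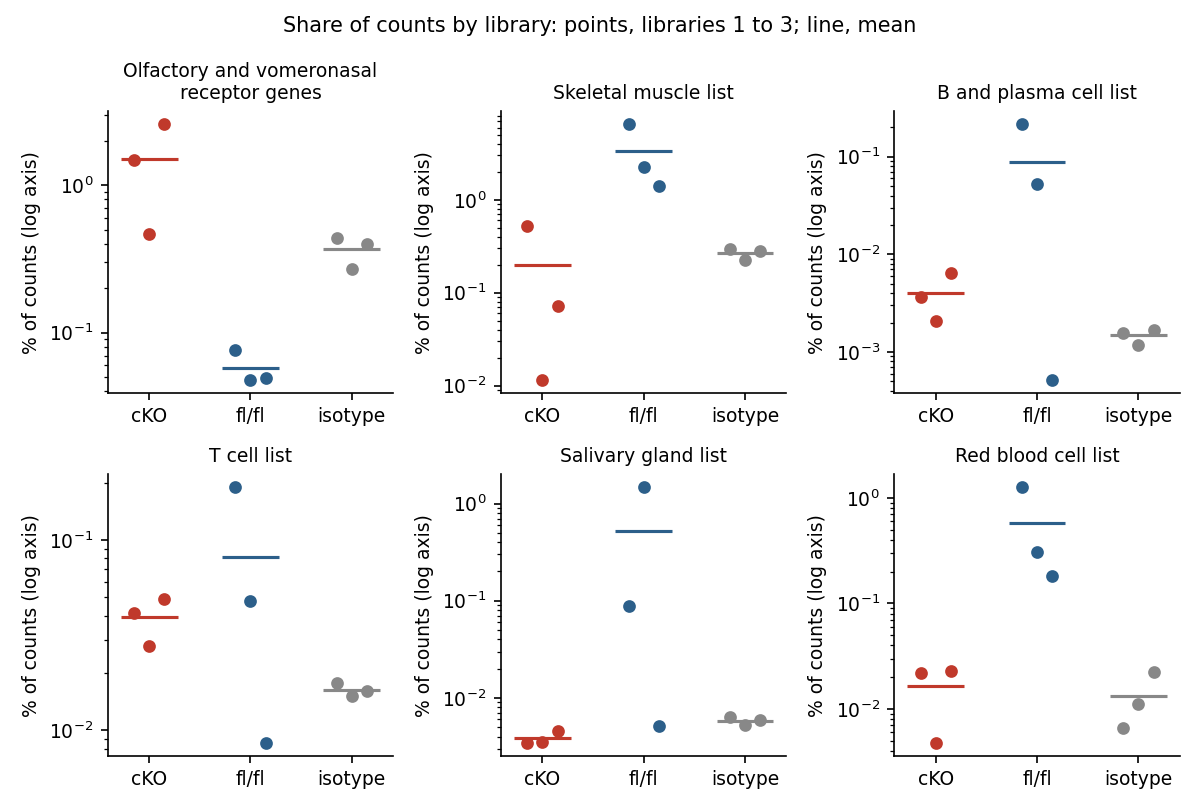
Percent of counts taken by receptor genes and by tissue lists (y axis, log scale) in the cKO, fl/fl and isotype libraries, with 1 point per library and the mean as a line. The receptor gene share is higher in every cKO library than in any fl/fl library, the muscle and red blood cell shares are lower, and the B cell, T cell and salivary shares spread widely among the fl/fl libraries.

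Il4ra, the targeted gene, was lower in cKO skin. Its level was 70.7, 67.9 and 14.5 CPM (the count scaled to library size, with TMM factors) in cKO libraries 1, 2 and 3. In fl/fl it was 215, 145 and 176 CPM, and in isotype skin 196, 179 and 193 CPM. The cKO libraries all lay below the 6 control libraries, and library 3 was lowest. The MAR1 libraries averaged 26.03 ± 18.55 CPM (SD), below the cKO mean of 51.02 ± 31.67 CPM. Untreated skin read 59.37 and 104.6 CPM, the lower of them within the cKO range. A low Il4ra level was thus not particular to the cKO libraries. The log2 fold change against fl/fl was -1.81 ± 0.57 (SE), a 3.50-fold fall (edgeR quasi-likelihood test, Benjamini-Hochberg adjusted p = 0.043). The p-values given with each gene rest on a spread estimated over all 14 libraries in 5 groups, not on these 6 alone. With only the cKO and fl/fl libraries the adjusted p of Il4ra was 0.12 in edgeR (log2 -1.66). In bulk RNA, fewer cells of a type and less RNA per cell cannot be told apart. The count covers the whole gene, so it does not show the deleted part by itself. It also holds the RNA of the many Il4ra-expressing cells without Pdgfra, which cannot be separated from that of the deleted cells. The call was lost when any 1 of the 6 libraries was left out (adjusted p from 0.053 to 0.18), and with the receptor gene share or muscle score as a covariate (adjusted p = 0.91 and 0.55). Pdgfra, which marks the deleted cells, stood at 34.9, 70.3 and 33.0 CPM in cKO and at 36.6, 98.5 and 53.9 CPM in fl/fl (log2 fold change -0.45 ± 0.42, adjusted p = 0.47).

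Of 16 genes of the receptor and its signalling, Il4ra, Cish, Socs1, Socs3, Il2rg and Ptpn6 fell and Il13ra2 rose, and 9 did not pass. The median log2 fold change of the list was -1.04, against 0.03 over all 20939 genes tested. Against isotype these medians were -0.55 and 0.04. Of all genes tested, 5.97% fell and 12.7% rose. Cish, the STAT-induced inhibitor, read 14.8, 13.6 and 5.95 CPM in cKO and 58.7, 42.8 and 37.0 CPM in fl/fl (4.02-fold lower, log2 -2.01 ± 0.40, adjusted p = 0.0052). The groups did not overlap, but isotype skin, at 15.3, 14.8 and 16.5 CPM, lay with cKO. Socs3 read 25.7, 31.1 and 7.83 CPM in cKO, 60.3, 84.5 and 55.9 CPM in fl/fl and 44.7, 43.4 and 48.7 CPM with isotype (log2 -1.63 ± 0.49, adjusted p = 0.034), so all cKO libraries were below all controls. Cish remained called without each library in turn, and Socs3 did not.

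The decoy receptor moved the other way. Il13ra2 read 18.7, 21.6 and 20.9 CPM in cKO and 8.41, 8.08 and 7.68 CPM in fl/fl, a 2.53-fold rise (log2 1.34 ± 0.40, adjusted p = 0.033). Isotype skin read 14.96, 9.40 and 7.89 CPM, so the cKO libraries lay above all 6 controls; without cKO library 1, cKO library 3 or fl/fl library 2 the adjusted p was 0.054, 0.081 and 0.080. Il13ra1, which completes the type II receptor, ranged from 88.5 to 168 CPM in cKO and from 58.0 to 164 CPM in fl/fl (log2 0.13 ± 0.38, adjusted p = 0.85). Stat6, the transcription factor of the pathway, read 64.1, 77.0 and 44.2 CPM in cKO and 85.8, 90.6 and 121 CPM in fl/fl, without overlap but not past the threshold (log2 -0.68 ± 0.28, adjusted p = 0.099). Socs1, Il2rg and Ptpn6, a phosphatase of blood cells, were highest in fl/fl library 1 and next highest in fl/fl library 2. Socs1 read 74.9, 32.5 and 9.16 CPM in fl/fl against 4.65 to 11.3 CPM in cKO, and Il2rg read 194, 65.0 and 8.69 CPM against 4.89 to 20.9 CPM. Ptpn6 read 167, 54.5 and 24.3 CPM against 23.3 to 28.04 CPM. For these 3 genes fl/fl library 3, the one almost without lymphoid RNA, lay within or beside the cKO range. Without fl/fl library 1 the log2 fold changes of Socs1, Il2rg and Ptpn6 were -0.84, -1.03 and -0.22 (adjusted p = 0.30, 0.33 and 0.73).

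Of 25 tested genes that IL-4 and IL-13 are known to induce, Cish, Ccl22, Fcer2a, Socs1 and Chil3 fell, Il13ra2 rose and 19 did not pass. The fold change was negative in 20 of them, with a median of -0.58 on the log2 scale against 0.03 over all genes tested. Over genes of at least 10 CPM the median was -0.23. Against isotype the median of the induced list was 0.09, so the shift was not seen against that control. Over all genes tested against fl/fl, 5.97% fell and 12.7% rose. Ccl11, the eotaxin of fibroblasts, read 12.9, 16.3 and 14.02 CPM in cKO. In fl/fl it read 38.3, 50.8 and 9.63 CPM and with isotype 27.0, 22.9 and 25.9 CPM (log2 -1.19 ± 0.47, adjusted p = 0.089). Library fl/fl 3 lay below cKO, and the isotype libraries lay above it. Postn, a matrix protein, ranged from 188 to 650 CPM in cKO and from 42.5 to 436 CPM in fl/fl (adjusted p = 0.39). Chil3, a macrophage chitinase-like protein, read 1.81, 1.60 and 1.06 CPM in cKO, 3.93, 4.20 and 7.95 CPM in fl/fl and 35.6, 21.7 and 42.4 CPM with isotype. It was 3.57-fold lower than in fl/fl (log2 -1.84 ± 0.57, adjusted p = 0.038). The call was lost without any 1 of the 6 libraries (adjusted p from 0.054 to 0.20), and without fl/fl library 3 the log2 fold change was -1.06.

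STAT6 binds a palindrome of TTC, any 4 bases and GAA. Of 17 genes of the induced list with a RefSeq promoter (250 bases before to 50 after the start, GRCm38.p6), 5 held this motif (29.4%), against 8.01% of 27025 genes with a promoter in that table. Of the 16 genes of the receptor and signalling list, which include Cish, Socs1 and Socs3, 0 held it in this window. The stretches before the start are printed because they show the site in these targets, with the motif in capitals. They lie at chr8:3691000-3691049 (Fcer2a, minus strand), chr6:129472881-129472930 (Clec7a, minus strand), chr16:48842444-48842493 (Retnla), chr8:94810279-94810328 (Ccl17) and chr19:29410817-29410866 (Pdcd1lg2), the last 3 on the plus strand.
Fcer2a: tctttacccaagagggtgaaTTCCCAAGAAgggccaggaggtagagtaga
Clec7a: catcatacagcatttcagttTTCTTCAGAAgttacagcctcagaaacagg
Retnla: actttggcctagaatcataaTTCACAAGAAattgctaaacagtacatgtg
Ccl17: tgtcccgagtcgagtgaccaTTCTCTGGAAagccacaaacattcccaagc
Pdcd1lg2: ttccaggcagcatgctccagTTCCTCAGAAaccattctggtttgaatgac
Of these 5 genes only Fcer2a, the low-affinity IgE receptor of B cells, was called, and it read 63.9, 17.6 and 0 CPM in fl/fl libraries 1, 2 and 3, the order of their B cell RNA. Retnla, a secreted protein of alternatively activated macrophages, read 10.7, 1.37 and 63.0 CPM in cKO and 262, 168 and 14.4 CPM in fl/fl (log2 -2.57 ± 1.12, adjusted p = 0.12). Of the promoters of called skin genes, 6.58% of 395 that rose and 6.84% of 614 that fell held the motif, against 6.85% of 13575 tested genes with a promoter. Both shares are at that of the tested genes. A match is a description of these letters, not of binding.

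One chemokine gene separated the groups by far more than their spread. Cxcl13, the chemokine that attracts B cells and is made by stromal cells of lymphoid tissue, read 2.09, 2.06 and 2.30 CPM in cKO. It read 126, 32.6 and 256 CPM in fl/fl and 88.0, 91.9 and 93.0 CPM with isotype. The lowest control library was thus far above every cKO library. The fall was 64.3-fold against fl/fl (log2 -6.01 ± 0.74, adjusted p = 0.0021) and remained called without each library in turn (adjusted p from 0.0013 to 0.0072). It was also called against isotype (log2 -5.40, adjusted p = 0.027). Cxcl13 had been placed in the list of lymph node stroma. It was highest in fl/fl library 3, where B cell genes were almost absent, whereas Glycam1, a marker of lymph node vessels, read 515, 156 and 0 CPM in the fl/fl libraries. With the receptor gene share as a covariate the estimate for Cxcl13 was -6.32 but the adjusted p was 0.23. Untreated skin read 6.13 and 11.9 CPM of it.

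Of 20 CC chemokine genes, Ccl5, Ccl22, Ccl6 and Ccl9 fell (median log2 fold change -0.73), and of 16 CXC chemokine genes Cxcl13 fell (median -1.12). Against isotype the medians of the 2 lists were -0.11 and -0.55. Over all genes tested, 5.97% fell. Ccl6, a chemokine of myeloid cells, read 102, 101 and 69.2 CPM in cKO, 279, 348 and 264 CPM in fl/fl and 285, 144 and 223 CPM with isotype (3.27-fold lower than fl/fl, log2 -1.71 ± 0.51, adjusted p = 0.034). Its neighbour Ccl9 read 108, 70.6 and 75.1 CPM in cKO, 205, 265 and 166 CPM in fl/fl and 237, 127 and 208 CPM with isotype (log2 -1.33 ± 0.43, adjusted p = 0.046). For both, the cKO libraries lay below all controls, though each call was lost without any 1 of the 6 libraries. Ccl5 and Ccl22, made by T cells and dendritic cells, were highest in fl/fl library 1 and lowest in fl/fl library 3, the order of lymphoid RNA in that group. Ccl5 read 101, 21.6 and 0.296 CPM there and 0.0981 to 0.355 CPM in cKO, and Ccl22 read 262, 59.6 and 5.14 CPM against 5.49 to 10.5 CPM. With the lymphoid score as a covariate Ccl5 was still called (log2 -3.08, adjusted p = 0.0082), as it was without fl/fl library 1 (-5.40, adjusted p = 0.017). Ccl22 was called in neither (-1.05 and -1.76, adjusted p = 0.16 and 0.12). Against fl/fl library 3 alone the log2 fold change of Ccl5 was -0.33, and its level in that library lay within the cKO range. Cxcl12, the abundant chemokine of fibroblasts, read 147, 168 and 162 CPM in cKO and 242, 371 and 188 CPM in fl/fl (log2 -0.75 ± 0.35, adjusted p = 0.14).

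**Figure D2:**
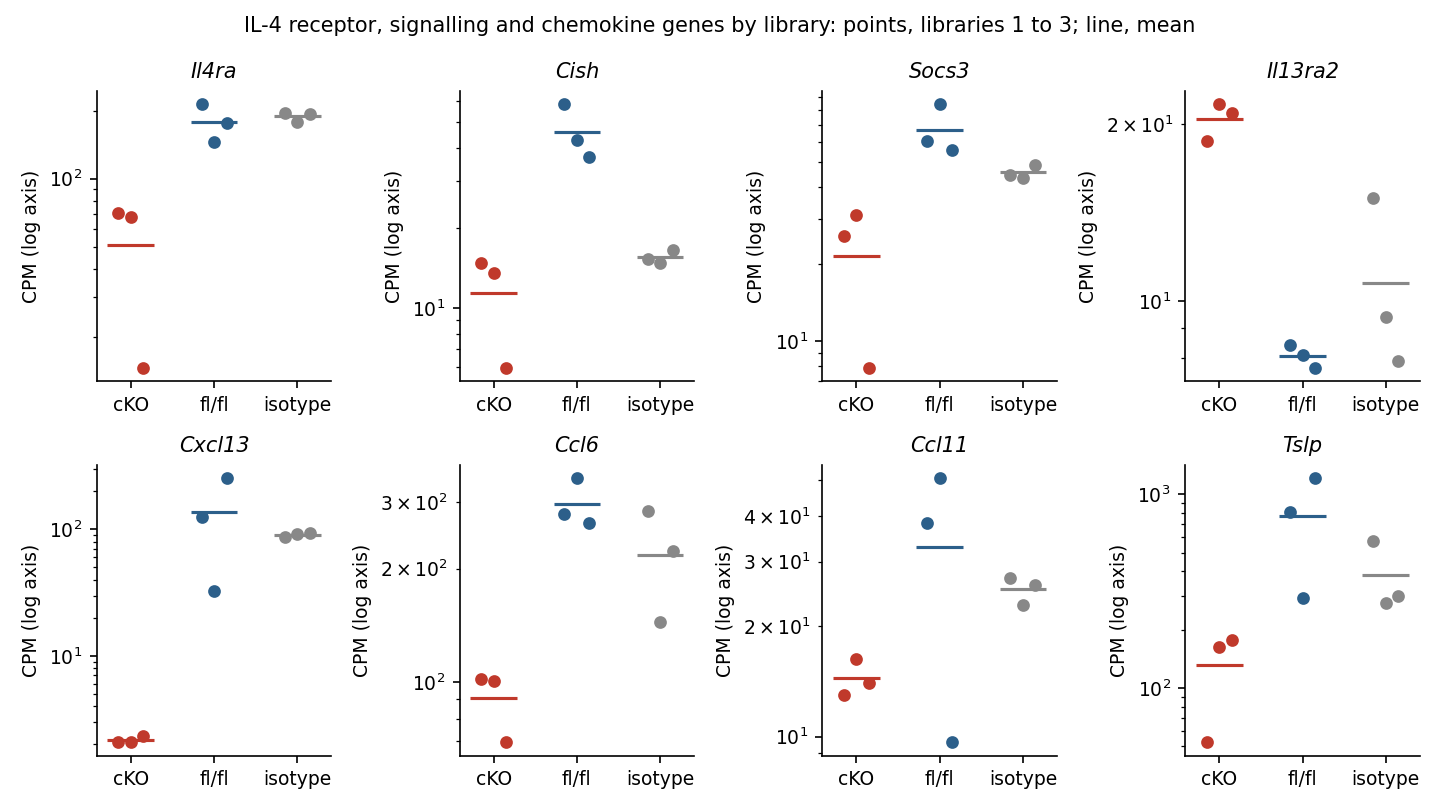
CPM (y axes, log scale) of receptor, signalling, chemokine and cytokine genes in the cKO, fl/fl and isotype libraries, 1 point per library and the mean as a line. Il4ra, Socs3, Cxcl13, Ccl6 and Tslp are lower in every cKO library than in all 6 control libraries and Il13ra2 is higher, whereas for Cish the isotype libraries lie near cKO.

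Tslp, the keratinocyte cytokine that MC903 induces, was lower in cKO. It read 52.4, 162 and 178 CPM in cKO, 808, 293 and 1213 CPM in fl/fl and 573, 275 and 299 CPM with isotype. All cKO libraries lay below all controls, while untreated skin read 2.07 and 3.09 CPM. The MAR1 libraries averaged 55.7 ± 47 CPM (SD), below the cKO mean of 131 ± 68 CPM. The fall was 5.90-fold against fl/fl (log2 -2.56 ± 0.72, adjusted p = 0.026), but without fl/fl library 3 it was -1.68 on the log2 scale (adjusted p = 0.13). The call was also lost without fl/fl library 1 or any 1 of the cKO libraries (adjusted p up to 0.089). Of 15 type 2 cytokine and alarmin genes tested, Tslp was the 1 called by edgeR, against 18.7% of all genes tested. Il33, another epithelial and stromal alarmin, read 35.2, 59.6 and 29.4 CPM in cKO and 50.9, 109 and 133 CPM in fl/fl (log2 -1.23 ± 0.50, adjusted p = 0.095). Crlf2, the receptor chain for Tslp, read 17.3, 13.996 and 1.88 CPM in cKO and 45.1, 39.8 and 39.0 CPM in fl/fl (log2 -1.89 ± 0.68, adjusted p = 0.066). Il4 read 1.01 to 1.31 CPM in cKO and 0.296 to 0.846 CPM in fl/fl, without overlap but not past the threshold (adjusted p = 0.33).

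Over the whole table, 3906 of 20939 genes were called (18.7%), 2655 higher in cKO (12.7%) and 1251 lower (5.97%). The groups did not overlap in 29.4% of genes. To keep skin genes apart from other tissue, a gene was counted as a skin gene when it was outside the tissue lists and the receptor genes, averaged at least 10 CPM over the 6 libraries, and its highest fl/fl library was at most 4 times the lowest. Of 9039 such genes, 530 rose (5.86%) and 784 fell (8.67%). The filter takes out uneven tissue, not muscle, which all fl/fl libraries held. The split also moved with the scaling and the libraries. Among called skin genes, 40.3% were higher in cKO, against 49.5% with RLE scaling, which moved the median of all genes by 0.12 on the log2 scale. Without fl/fl library 1, fl/fl library 3 or cKO library 2, 81.9%, 81.5% and 77.1% were higher.

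The called skin genes with the largest changes were not skin genes by what they are known for. Of the 12 largest rises, Fgf9, a growth factor, read 399, 77.2 and 321 CPM in cKO and 3.63, 2.05 and 1.24 CPM in fl/fl (log2 6.84 ± 1.02, adjusted p = 0.0025). The 11 others were Semp2l1, Zfp738, Adgrv1, Ccdc141, Epha5, Usp17la, Ctcfl, Upb1, Jakmip2, Pou1f1, which is a pituitary transcription factor, and Slx1b. In all 12, cKO library 2, with the lowest receptor gene share of its group, was the lowest of the cKO libraries. Of the 12 largest falls, Hspb6, a small heat shock protein of muscle, read 3.86, 2.13 and 0.177 CPM in cKO and 137, 163 and 106 CPM in fl/fl (log2 -6.01 ± 0.85, adjusted p = 0.0027). Others were Vgll2, Csrp3, Art1, Coro6, Myoz2, Rpl3l, Myo18b, Tmem38a, Smyd1 and Eef1a2, most of them genes of striated muscle. So an even level in fl/fl did not keep muscle out.

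How skin genes moved with the receptor gene share was therefore read in the 8 libraries outside the comparison (isotype, MAR1-injected and untreated). Of 1102 skin genes with a Pearson r of at least 0.8 there, 385 were called higher and 6 lower in cKO. Of 3695 with an r of -0.8 or lower, 16 were called higher and 563 lower. Of 3775 linked neither to the receptor share nor (r of at least 0.6) to the muscle score, 117 rose and 155 fell. The called genes thus lay mostly among those that moved with the receptor share in other mice. The correlations describe 8 libraries that also differ in treatment and depth. With the receptor share as a covariate in the fit, 14 genes of the whole table and 7 skin genes were called, and the share and the genotype cannot be told apart in these 6 libraries.

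**Figure D3:**
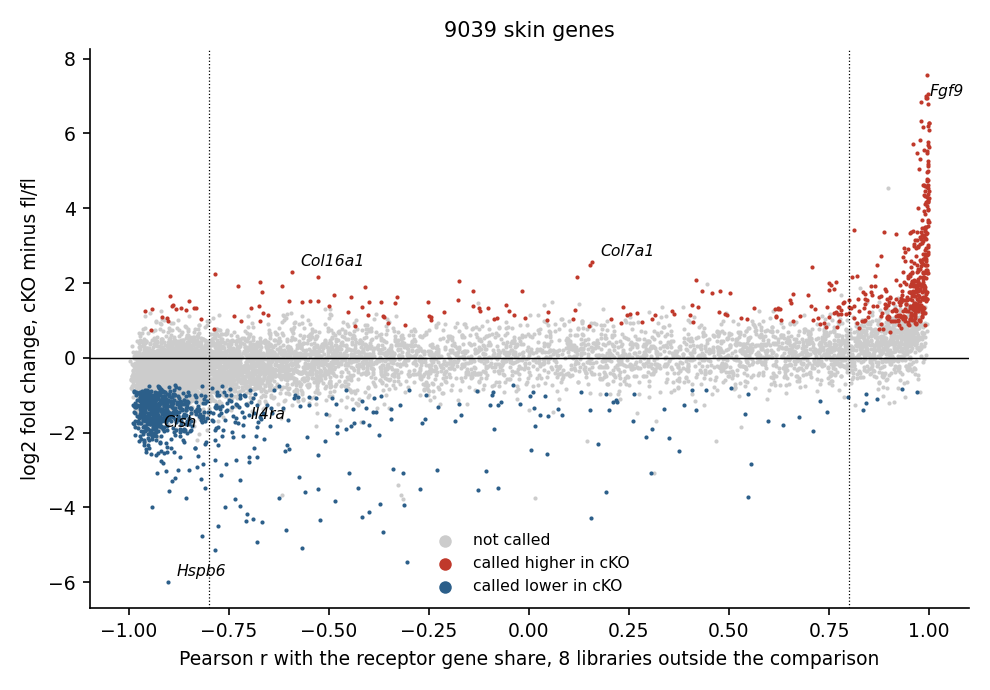
Log2 fold change of cKO against fl/fl (y axis) for 9039 skin genes, by their Pearson r with the receptor gene share in the 8 libraries outside the comparison (x axis); red and blue points are called and dotted lines mark -0.8 and 0.8. Called rises crowd at the right edge and called falls at the left edge, while Col7a1 and Col16a1 rose at an r between the lines.

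Of genes of at least 10 CPM that were not skin genes by this rule, the largest rises were all receptor genes. Of all 10764 genes of at least 10 CPM, 7.18% rose and 10% fell. Or6c88, Or1f19 and Or11n2 had 0 counts in all fl/fl libraries. Against 3 counts over the group they were at least 1510-fold, 1120-fold and 1090-fold higher in cKO. Or5m8, Or7d9 and Vmn2r27 followed. Of 647 receptor genes tested, 379 rose (edgeR), and no fall was called there, at an unadjusted p under 0.05 (0) or by DESeq2 (0). The largest falls were salivary or glandular genes, Bpifa2, Smr3a, Chia1, Dcpp1, Pip and Cst5. Bpifa2 read 733, 10949 and 0.118 CPM in fl/fl libraries 1, 2 and 3 and had 0 counts in each cKO library. Smr3a read 359, 5916 and 0 CPM and was likewise at 0 in cKO.

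The isotype libraries gave a second view of the cKO libraries, chosen after the values were seen. Against them, edgeR called 4 genes of 20939 lower (0.0191%) and 0 higher. At an unadjusted p under 0.05 the counts were 1320 lower and 1802 higher, and DESeq2 called 226 lower and 597 higher. The 4 genes were Cxcl13, Chil3, the neutrophil and macrophage protease Mmp9 and the protease inhibitor Tfpi2. Mmp9 read 13.3, 8.31 and 4.48 CPM in cKO and 8.11, 12.8 and 21.3 CPM in fl/fl, against 86.9, 173 and 92.5 CPM with isotype. Tfpi2 read 3.36 to 4.74 CPM in cKO, 3.97 to 8.57 CPM in fl/fl and 22.7 to 39.0 CPM with isotype. For both, cKO and fl/fl lay together, below isotype skin. Of the 4, Cxcl13 and Chil3 also passed against fl/fl.

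Genes were then set apart by their values: those outside the tissue lists and receptor genes, of at least 10 CPM, whose 3 cKO libraries lay outside all 6 control libraries and whose r in the other 8 libraries was between -0.8 and 0.8 with the receptor share and under 0.6 with the muscle score. There were 360, and edgeR called 47 of them higher and 109 lower against fl/fl. The cKO libraries lay outside all 6 controls in 12.7% of all genes tested, and below them in 5.65%. The rule fixes their order against the controls, so the counts only describe it. Muscle genes such as Vgll2 and Myo18b remained among the falls. Many of the genes lay near the limit for the receptor share, with an r of -0.79 for Icam1, -0.77 for Myc, -0.73 for Nfil3 and Fscn1 and -0.72 for Hsd11b1. With that share as a covariate, 0 of 63 called genes followed through all settings, Icam1, Myc, Nfil3, Fscn1 and Hsd11b1 among them, were called by edgeR.

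The genes named here, among those lower in cKO, were also picked after their values were seen. Sprr2h, a cornified envelope precursor, read 35.8, 97.2 and 81.0 CPM in cKO and 103, 155 and 1106 CPM in fl/fl (log2 -2.67 ± 0.78, adjusted p = 0.033). Slpi, a secreted antiprotease, read 38.1, 50.9 and 62.1 CPM and 64.7, 97.0 and 764 CPM (adjusted p = 0.049). In both, fl/fl library 3 was far above the rest, and without it the log2 fold changes were -0.45 and -0.28 (adjusted p = 0.51 and 0.75). Fscn1, which bundles actin in migrating and dendritic cells, was more even. It read 64.1, 51.9 and 15.3 CPM in cKO, 398, 174 and 304 CPM in fl/fl and 134, 90.8 and 126 CPM with isotype (6.67-fold lower than fl/fl, log2 -2.74 ± 0.50, adjusted p = 0.0037). Hsd11b1, the enzyme that activates glucocorticoids in skin, read 7.48, 5.20 and 2.83 CPM in cKO, 28.8, 15.9 and 21.9 CPM in fl/fl and 29.8, 36.0 and 29.4 CPM with isotype (4.28-fold lower, adjusted p = 0.0082). Nfil3, a transcription factor of type 2 immunity and the circadian clock, read 14.6, 13.4 and 9.54 CPM, 29.0, 40.0 and 45.1 CPM, and 38.8, 43.3 and 41.9 CPM in these groups (3.03-fold lower, adjusted p = 0.0040). Tnfaip6, a hyaluronan-binding protein that inflamed fibroblasts secrete, was 3.76-fold lower (11.3 ± 2.7 against 42.5 ± 17 CPM, SD, n = 3 each, adjusted p = 0.021 in edgeR). Icam1, an adhesion molecule, was 2.77-fold lower (adjusted p = 0.026) and Myc, a growth regulator, 2.43-fold lower (adjusted p = 0.030). Fscn1 and Nfil3 remained called without each library in turn, and the other genes of this paragraph did not. The MAR1 libraries averaged 11.3 CPM for Fscn1, 9.87 CPM for Nfil3 and 13.0 CPM for Myc, below the cKO means of 43.8, 12.5 and 30.1 CPM. Sprr2h, Slpi and Icam1 also averaged lower with MAR1 than in cKO. Hsd11b1 averaged 5.79 CPM with MAR1 against 5.17 CPM in cKO, and Tnfaip6 44.2 CPM against 11.3 CPM.

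The genes named next, among those higher in cKO, were picked after their values were seen. Lce1m, a late cornified envelope protein, read 96.8, 190 and 591 CPM in cKO, 9.69, 27.1 and 51.2 CPM in fl/fl and 12.2, 30.9 and 52.9 CPM with isotype. It rose 9.97-fold (log2 3.32 ± 0.74, adjusted p = 0.0088), and untreated skin read 2351 and 1515 CPM. Skint1, a keratinocyte gene that selects epidermal gamma delta T cells, read 13.0, 31.2 and 23.3 CPM, 1.31, 3.71 and 5.44 CPM, and 3.77, 5.10 and 4.35 CPM in these groups (6.44-fold higher than fl/fl, adjusted p = 0.0051). Krt15, a keratin of basal and follicle stem cells, read 783, 1164 and 1204 CPM in cKO and 280, 602 and 317 CPM in fl/fl (2.63-fold, log2 1.39 ± 0.43, adjusted p = 0.039). Lgr6, a stem cell marker of the follicle isthmus, rose 4.68-fold (27.5 ± 8.0 against 5.87 ± 3.6 CPM, n = 3 each, adjusted p = 0.011 in edgeR). Prlr, the prolactin receptor, rose 4.20-fold (adjusted p = 0.0072), Sostdc1, a BMP and Wnt antagonist of follicles, 3.39-fold (adjusted p = 0.013) and Ptn, a heparin-binding growth factor, 2.92-fold (adjusted p = 0.018). The sterol genes Msmo1 and Cyp51, of cholesterol synthesis, and Soat1, which esterifies cholesterol, rose 2.89-fold, 2.21-fold and 2.77-fold (adjusted p = 0.0087, 0.037 and 0.0087). Lce1m, Skint1, Lgr6, Prlr, Sostdc1, Ptn, Msmo1 and Soat1 remained called without each library in turn. Some of these levels were not particular to cKO. Lgr6 averaged 58.0 CPM with MAR1 and 40.2 CPM in untreated skin, and Prlr 38.7 and 32.1 CPM against 32.0 CPM in cKO. Krt15 and Ptn averaged 3157 and 179 CPM in untreated skin, above cKO, but were below cKO with MAR1. Skint1, Sostdc1, Msmo1, Cyp51 and Soat1 had their highest mean in cKO.

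**Figure D4:**
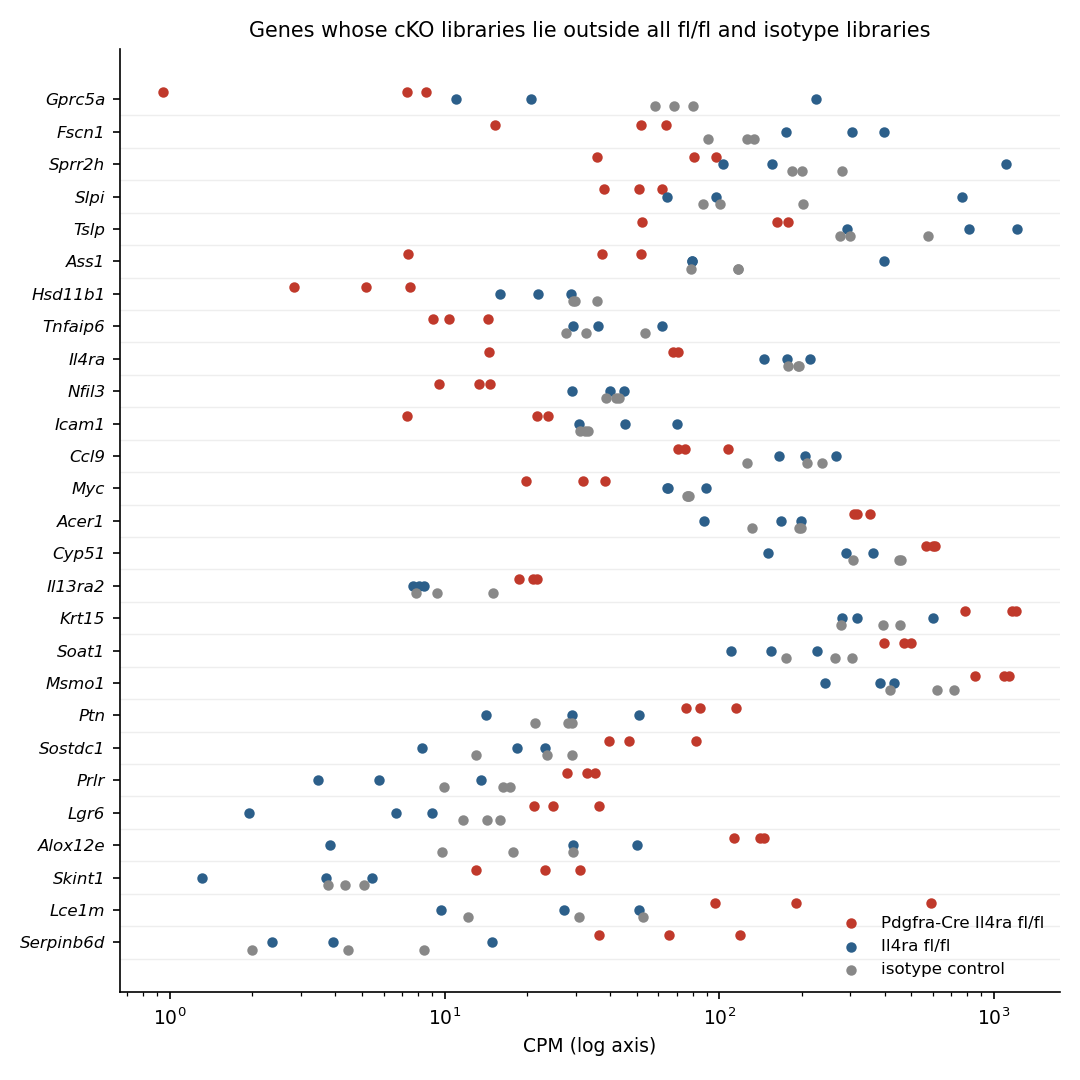
CPM (x axis, log scale) of genes whose cKO libraries (red) lie outside all fl/fl (blue) and isotype (grey) libraries, 1 point per library. The genes from Gprc5a to Myc are lower and those from Acer1 to Serpinb6d higher in cKO, and in Gprc5a, Sprr2h, Slpi and Ass1 a single fl/fl library stands far above the others.

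Of 12 basal keratinocyte genes Krt15 rose, of 19 differentiation genes Flg2 and Ivl rose and Tgm3 and Cdsn fell, and of 27 genes of stressed keratinocytes Sprr2h fell, with medians of 0.06, 0.02 and -0.70. The shares over all genes tested were 12.7% called higher and 5.97% lower. In the stressed keratinocyte list 18 of 27 fold changes were negative. Flg2, a filaggrin-like protein, read 94.1, 251 and 290 CPM in cKO and 40.7, 50.0 and 43.4 CPM in fl/fl (log2 2.24 ± 0.41, adjusted p = 0.0037). Isotype skin, at 101, 193 and 222 CPM, lay with cKO. Cdsn, which holds corneocytes together, read 103, 397 and 116 CPM in cKO and 214, 914 and 4113 CPM in fl/fl (adjusted p = 0.029), so its fall rested on fl/fl library 3. Of the barrier lipid enzymes the ceramidase gene Acer1 rose 2.16-fold (327 ± 23 against 151 ± 57 CPM, n = 3 each, adjusted p = 0.033 in edgeR), 1 of 20 tested. Of 12 sebaceous gland genes Soat1 and Mc5r rose, with a median of 0.67.

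Fibroblast genes split. Of 24 dermal fibroblast genes, Mfap5, Dpt, Sfrp2, Dpp4 and Clec3b fell and the rest did not pass, with a median of -0.36. The share of all genes tested that fell was 5.97%. Dpt, a matrix protein of the upper connective tissue, read 82.7, 85.7 and 20.0 CPM in cKO and 406, 565 and 169 CPM in fl/fl (6.04-fold lower, log2 -2.60 ± 0.58, adjusted p = 0.0087). Mfap5, of elastic microfibrils, read 7.34, 10.5 and 8.95 CPM and 47.0, 80.3 and 25.3 CPM (5.69-fold lower, adjusted p = 0.0060). Isotype skin read 72.9 to 100 CPM for Dpt, overlapping cKO, and 14.2 to 27.0 CPM for Mfap5, above cKO. Dcn, a proteoglycan of all dermal fibroblasts, ranged from 513 to 915 CPM in cKO and from 705 to 1013 CPM in fl/fl (log2 -0.20 ± 0.34, adjusted p = 0.71), and Col1a1 from 190 to 1230 CPM and from 276 to 1158 CPM (adjusted p = 0.63). Mfap5, Dpt, Dpp4 and Clec3b are also known in the connective tissue around muscle and fascia, and their higher fl/fl levels stood beside the higher muscle share; its part in them was not tested.

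Of 20 collagen chains, Col7a1 and Col16a1 rose and Col14a1 fell, with a median of 0.00. These counts are near the shares over all genes tested, 12.7% higher and 5.97% lower. Col7a1, which forms the anchoring fibrils under the epidermis, read 129, 90.7 and 109 CPM in cKO and 8.35, 27.99 and 19.6 CPM in fl/fl (5.88-fold higher, log2 2.56 ± 0.44, adjusted p = 0.0033). Col16a1, a chain found at the same junction, read 223, 170 and 117 CPM and 18.3, 51.2 and 34.9 CPM (4.88-fold higher, log2 2.29 ± 0.42, adjusted p = 0.0038). Both remained called without each library in turn. Isotype skin read 55.1, 98.1 and 79.0 CPM for Col7a1 and 106, 89.6 and 136 CPM for Col16a1, so the cKO libraries overlapped with it (log2 0.50 and 0.62, adjusted p = 0.54 and 0.44).

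Some genes of inflamed fibroblasts and macrophages were lower. Of 23 inflammatory fibroblast genes C3, Tnfaip6, Csf1 and Icam1 fell, with a median of -1.19, while 5.97% of all genes tested fell. Csf1, the growth factor of macrophages, read 21.9, 24.4 and 13.3 CPM in cKO and 37.9, 53.9 and 42.4 CPM in fl/fl (log2 -1.17 ± 0.32, adjusted p = 0.024). C3, the central complement component, read 106, 79.7 and 63.8 CPM and 422, 307 and 178 CPM (3.63-fold lower, adjusted p = 0.0086).

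Of 16 macrophage genes C1qb, Cd68, Lyz2, Csf1r and C1qc fell (median -0.99), while 5.97% of all genes tested fell. Cd68, a lysosomal marker of macrophages, read 12.9, 13.5 and 1.71 CPM in cKO, 45.7, 60.4 and 55.6 CPM in fl/fl and 36.6, 37.0 and 55.9 CPM with isotype (5.73-fold lower than fl/fl, adjusted p = 0.015). Csf1r, the receptor for Csf1, read 77.8, 77.0 and 43.5 CPM, 143, 173 and 96.3 CPM, and 126, 131 and 135 CPM in these groups (log2 -1.06 ± 0.31, adjusted p = 0.032). In Csf1, C3, Cd68 and Csf1r, all cKO libraries lay below all 6 controls. Each of these 4 genes had an r of -0.91 to -0.97 with the receptor share in the other 8 libraries, and the share and the genotype cannot be told apart as sources of the falls. The mannose receptor gene Mrc1, another macrophage marker, ranged from 126 to 189 CPM in cKO and from 113 to 222 CPM in fl/fl (adjusted p = 0.94).

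Calls in the granulocyte lists are set beside the share over all genes tested, of which 12.7% rose and 5.97% fell. Of 12 basophil genes Cd200r3 rose and of 10 eosinophil genes Il5ra rose, with medians of 0.18 and -0.70. Of 11 mast cell genes edgeR called 0, with 1 higher and 1 lower at an unadjusted p under 0.05, and 2 higher and 1 lower by DESeq2. Of 15 neutrophil genes Cxcr2 rose (median -0.66). Cd200r3, Il5ra and Cxcr2 had an r of 0.98 to 0.99 with the receptor share in the other 8 libraries. The lymphoid lists fell with the lymphoid RNA of fl/fl libraries 1 and 2. Of 14 B and plasma cell genes 9 fell (median -5.24) and of 22 T cell genes 8 fell and Gata3 rose (median -2.83). Against isotype, where lymphoid RNA was lower than in cKO, the medians were 1.47 and 1.07.

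Muscle genes were kept apart as well. Of 27 skeletal muscle genes 17 fell and Myh8, an immature myosin, rose (median -4.27), while 5.97% of all genes tested fell. Mylpf, a fast myosin light chain, averaged 37.9 ± 53 CPM in cKO and 2968 ± 3736 CPM in fl/fl (n = 3 each, adjusted p = 0.0094 in edgeR). Against isotype the median of the list was -0.80. Of 7 red blood cell genes Hbb-bs, Alas2, Hbb-bt, Hba-a2 and Hba-a1 fell (median -5.21). Near-identical haemoglobin, receptor and late cornified envelope genes share reads, so their single values are uncertain.

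**Figure D5:**
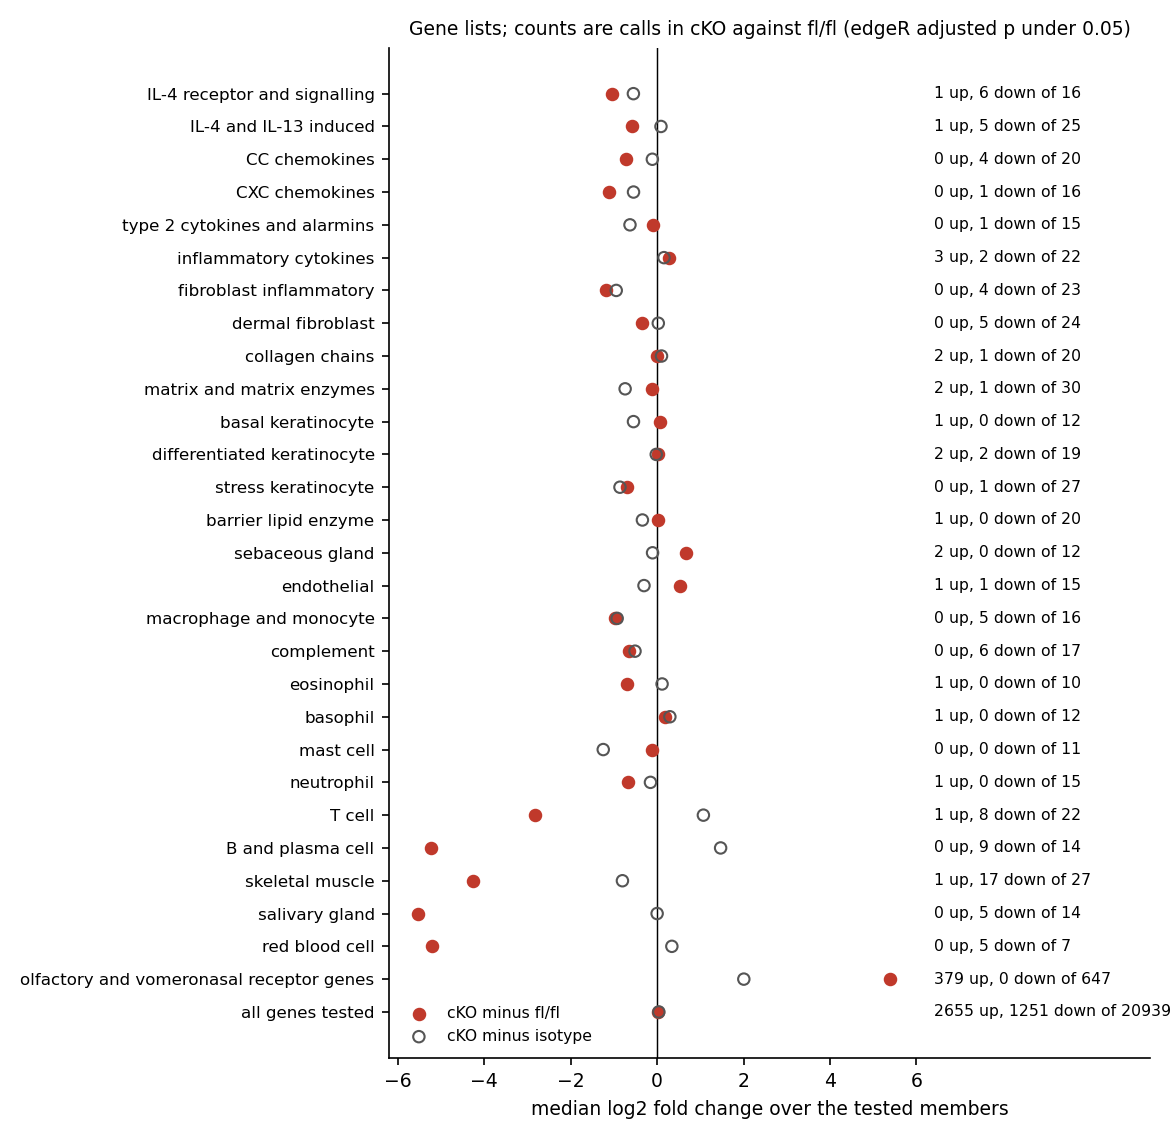
Median log2 fold change (x axis) over the tested members of the gene lists and over all genes, against fl/fl (filled) and against isotype (open), with the number called up and down against fl/fl at the right. Muscle, lymphoid, salivary and red blood cell lists lie far to the left against fl/fl only, and receptor genes far to the right in both, whereas the keratinocyte and collagen lists lie within 1 of zero; the cKO libraries enter both series of points.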

How the data were processed

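Skin RNA of 14 mice was sequenced, 3 of them Pdgfra-Cre Il4ra fl/fl (cKO) and 3 Il4ra fl/fl. The values the authors deposited are estimated counts for each gene, which need not be whole. Salmon 1.2.1, DESeq2 1.44.0 and the build GRCm39 appear, without a role, in the submitters' processing notes. An entry without a gene name, 0.0137% to 0.391% of counts in the 6 libraries, was left out. Counts were rounded and fitted in edgeR 4.0.16 (TMM scaling, filterByExpr, robust quasi-likelihood test, two-sided) over all 14 libraries as 5 groups, with 9 residual degrees of freedom and a common dispersion of 0.361. The contrast was cKO minus fl/fl. The threshold for a call was a p under 0.05 after Benjamini-Hochberg adjustment over 20939 of 35327 genes. The standard error is the log2 fold change divided by the square root of F. DESeq2 1.42.0 was an alternative. RefSeq promoters (GRCm38.p6) were searched for the motif on both strands, which read the same; coordinates are that table's, not the authors'.

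Genes were named as follows: members of the receptor, induced and chemokine lists, up to 12 called skin genes by size in each direction whose groups did not overlap, up to 4 members of each other list by p, and up to 6 called genes of at least 10 CPM in each direction that are not skin genes. Genes outside this rule, such as those set apart, were chosen after their values were seen. The members and lists were chosen with earlier results of these data known. Some results are not reported here.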

Additional observations from a re-analysis of the deposited data

Results flagged for a closer look

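The entry of the count table that names no gene was used in no comparison. It took 0.391%, 0.0618% and 0.224% of counts in cKO libraries 1, 2 and 3, with a mean of 0.225%. In fl/fl it took 0.0244%, 0.0181% and 0.0137%, and in isotype skin 0.0558%, 0.0422% and 0.0536%, so every cKO library lay above the 6 control libraries. The MAR1 libraries held still more of it, at 0.412%, 0.708% and 0.913%, and untreated skin held 0.0147% and 0.0593%. Receptor gene shares were also higher in the 3 cKO libraries than in these controls, and higher still with MAR1. The source of these counts was not tested.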

How the results depend on the processing

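The 3906 calls became 6002 with DESeq2, 2206 with a mean of at least 10 CPM, 1409 with only the cKO and fl/fl libraries, 1654 with the skeletal muscle score and 14 with the receptor gene share as a covariate. Leaving out 1 library gave 1958 (without cKO library 3) to 4362 (without cKO library 2). The skin gene calls, 1314, became 2119 with DESeq2, 348 with only the cKO and fl/fl libraries, 348 with the muscle score, 7 with the receptor share and 860 with fl/fl libraries within 2 times. They ranged from 546 (without cKO library 3) to 1451 (without fl/fl library 3), with 846 without fl/fl library 2. In 3 settings chosen after seeing the data, all genes and skin genes called were 1 and 0 with both covariates, 748 and 222 with cKO library 2 alone, and 656 and 181 with fl/fl library 3 alone. A lone library is assumed there to vary like the other groups.

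Il4ra was -1.80 without a filter, -1.66 with the 6 libraries, -1.13 with the muscle score, -1.83 with the lymphoid score, -0.80 with the receptor share, -1.06 with cKO library 2 alone and -1.51 with fl/fl library 3 alone, none of them called. Leaving out 1 library gave -2.12 to -1.33, none called, and both covariates together gave 2.85 (edgeR adjusted p = 0.83). The replicate block gave 3063 calls, 1111 skin gene calls and -2.04 for Il4ra (adjusted p = 0.029). The titles' numbers are not known to pair mice, and same-numbered libraries correlated in their deviations at 0.22, 0.050 and -0.098 over 10764 genes.

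Of 63 called genes followed through all settings, 24 remained called without each library in turn: Ccl5, Cd68, Cish, Col16a1, Col7a1, Cxcl13, Dpt, Fgf9, Flg2, Fscn1, Hspb6, Lce1m, Lgr6, Mfap5, Msmo1, Myh2, Mylpf, Nfil3, Prlr, Ptn, Sfrp2, Skint1, Soat1 and Sostdc1. With only the cKO and fl/fl libraries 26 remained called, under the muscle score 11 and under the receptor share 0. Col16a1, Col7a1, Cxcl13, Fgf9 and Hspb6 were called in every planned setting but the receptor share. Signs turned with the receptor share for Socs3 (0.66), Tnfaip6 (0.072), Tgm3 (0.15), Cdsn (0.25), Atf3 (0.72) and Dusp1 (1.19), and with the muscle score for Clec3b (0.025). With fl/fl library 3 alone they turned for Socs1 (0.26), Il2rg (0.96), Ptpn6 (0.39), Ccl22 (0.79), Fcer2a (5.18), Clec3b (0.017) and Col14a1 (0.48). With both covariates they turned for Cish (0.80), Socs3 (3.45), Ptpn6 (1.02), Chil3 (1.80), Ccl6 (2.88), Ccl9 (2.64), Dpt (2.46), Mfap5 (1.30), Clec3b (2.34), C3 (1.56), Csf1 (0.72), Tnfaip6 (1.92), C1qb (1.80), C1qc (1.87), Cd68 (3.53), Lyz2 (1.25), Csf1r (1.55), Col14a1 (0.23), Flg2 (-0.015), Gprc5a (0.53), Hsd11b1 (2.17), Nfil3 (0.30), Lgr6 (-0.49) and Dusp1 (1.80). The cause was not tested. Depth was lowest in cKO library 3, so counting error is largest there.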

Other observations

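The lists here were not described above. Their calls are set beside the shares over all genes tested, of which 12.7% rose and 5.97% fell. Of 10 melanocyte genes Dct and Tyr rose against fl/fl, with a median log2 fold change of 1.06. Of 15 endothelial genes Pecam1 rose and Lyve1, a marker of lymphatic vessels, fell (median 0.53). Of 23 hair follicle genes Lgr5 and Sox9 rose, with a median of 3.20 against fl/fl and -0.03 against isotype. Of 14 adipocyte genes edgeR called 0, with 0 higher and 1 lower at an unadjusted p under 0.05 and 0 by DESeq2 (median -0.74). Of 17 immediate early genes Atf3, Dusp1 and Fosb fell (median -0.85), and of 22 interferon response genes Ifi27l2a, Irf7 and Isg15 fell and Rsad2 rose (median -1.06).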
